A study of Homo sapiens with 8 samples.

Results

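The 10 genes described here are known targets of the transcription factor NRF2 or close partners of such targets in redox and iron handling: PRDX1, TXN, TXNRD1, SRXN1, GCLC, GCLM, NQO1, HMOX1, FTH1 and FTL. They were taken from a list of names and Ensembl gene IDs, with no threshold on measured values, and all 10 were found among the 19580 genes listed in the deposited table. Ribosome footprints, the stretches of mRNA that a ribosome shields from RNase, were sequenced from HAP1 cells, a near-haploid human line that descends from a chronic myeloid leukaemia. There were 4 groups of 2 biological replicates each: WT at 0 min, WT at 30 min, RNF14 knockout at 0 min and RNF14 knockout at 30 min. RNF14 is a ubiquitin ligase that marks proteins on stalled ribosomes. Cells of every group had taken up 4-thiouridine (4SU), a uridine analogue, at 5 uM for 18 h and had then received 6 kJ/m2 of UVA, which crosslinks 4SU-bearing RNA to proteins. The times count from the end of irradiation. No group lacked 4SU or UVA, so the values describe change between 0 and 30 min and not the response to irradiation itself. Whether the knockout line is 1 clone is not given in the sources used here.

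NRF2 is held at low levels by KEAP1, whose reactive cysteines sense oxidants, and once released it enters the nucleus and switches on genes through the antioxidant response element in their promoters. The products feed a pair of reducing systems, thioredoxin and glutathione, and also detoxify quinones, break down haem and store iron. Ferritin is in addition controlled at translation: iron regulatory proteins bind a hairpin near the start of its mRNAs, the iron response element, and block initiation when iron is scarce. UVA is known to generate singlet oxygen and to release iron from ferritin in cultured cells.

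Of the 10 genes, 7 had entries in the RefSeq promoter table (GRCh38.p14), with 8 windows because TXNRD1 has a pair of start sites there. HMOX1, PRDX1 and FTH1 were not among the 7 and were not searched. The core of the antioxidant response element, TGAC and GCA with any 3 bases between them, was searched on both strands of the 250 bases before each start and was present in 2 of these 8 windows, against 2.59% of all 35116 windows. The iron response element loop, searched as a C and CAGTG with any 5 bases between them on the sense strand of the first 50 transcribed bases, was present in 1 of the 8 windows, that of FTL, against 1.71% of all windows. The matched stretches are shown because they are the letters through which NRF2 and the iron regulatory proteins are known to act on genes of these families. Capitals mark the motif, which in GCLM and TXNRD1 reads on the opposite strand. The GCLM stretch is at chr1:93909442-93909479 on the minus strand, with the motif starting 35 bases before the start site. The TXNRD1 stretch is at chr12:104286915-104286952 on the plus strand, with the motif starting 103 bases before the downstream start. The FTL stretch, from its 5′ untranslated region, is at chr19:48965334-48965358 on the plus strand, with the motif starting at transcribed base 33. A match is a description of letters and not a measured site. Only the bases named were searched, so a window without a match does not show that its gene lacks the element.
GCLM: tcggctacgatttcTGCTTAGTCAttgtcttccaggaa
TXNRD1: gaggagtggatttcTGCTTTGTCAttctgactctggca
FTL: tctcttgCTTCAACAGTGtttggac

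Values are RPKM, footprint reads per kilobase of the listed transcript, scaled to the library's total. Read totals recovered from the table ran from 323946, in knockout at 30 min replicate 1, to 1241975, in knockout at 0 min replicate 1, and the 4 libraries at 30 min were all shallower than the 4 at 0 min, so depth and time cannot be told apart. No RNA abundance was analysed here, so a footprint level joins mRNA amount with translation of that mRNA. Differences were tested with limma-trend on log2(RPKM + 1) over the 11920 transcripts whose mean reached 1 RPKM, two-sided, with Benjamini-Hochberg adjustment over all of them and a threshold of 0.05, and log2 changes are on that scale. All 10 genes passed the filter. With RNF14 and marker genes not matched to IDs, neither the knockout nor the cell line was checked against the data here.

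Per length, PRDX1 and TXN were read far more than the rest, and HMOX1 and GCLM least. The length is that of the listed transcript, from 635 bases for TXN to 3930 bases for TXNRD1. How much of each transcript is coding was not taken into account, so the order and the gaps between genes also depend on length. PRDX1 had a mean of 768 RPKM over the 8 libraries and TXN 531 RPKM. FTL followed with 101.9 RPKM, NQO1 with 53.1, FTH1 with 50.0, TXNRD1 with 38.4, SRXN1 with 15.4, GCLC with 14.6, GCLM with 8.57 and HMOX1 with 6.95. The range of TXN over the 8 libraries did not reach down to that of FTL, nor that of TXNRD1 to that of SRXN1, while every other pair of neighbours in this order overlapped. The 10 genes together took 0.108% and 0.114% of all reads in the 2 wild-type libraries at 0 min and 0.187% and 0.181% in those at 30 min. The knockout libraries gave them 0.139% and 0.136% of reads at 0 min, and 0.167% and 0.178% after recovery. PRDX1 gained the most of the 10: its share alone went from 0.0390% and 0.0396% to 0.103% and 0.0933% in wild type. In the knockout it went from 0.0558% and 0.0587% to 0.0969% and 0.0943%, a larger mean gain than that of the 10 genes together. The 8 genes other than PRDX1 and TXN held between 0.0370% and 0.0520% of reads in every library. In wild type both TXN and those 8 genes together also had a higher share in each library at 30 min than in either at 0 min.

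**Figure D1:**
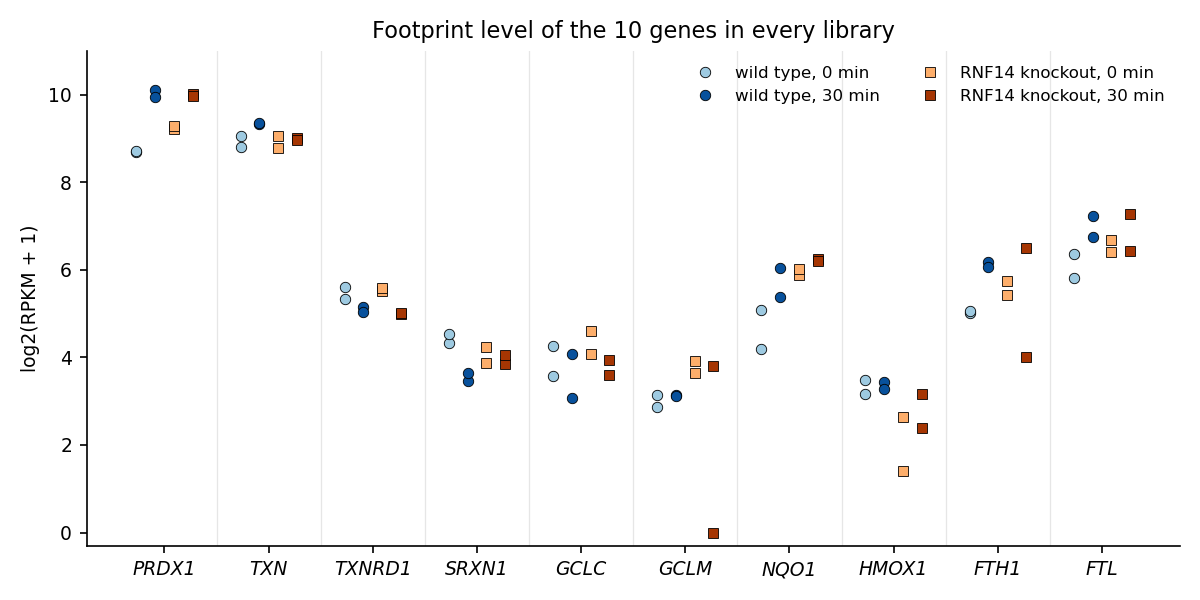
Footprint level of each gene on the log2(RPKM + 1) scale, with 1 point for each of the 8 libraries; colour and shape give genotype and time. In both genotypes PRDX1 lies higher at 30 min and TXNRD1 lies lower, and in the knockout at 30 min GCLM and FTH1 each have 1 library far below the other.

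Recovery from 0 to 30 min was the first comparison. PRDX1 rose in both genotypes, and none of the other 9 genes passed the test in either. In wild type 1 of 10 genes was called, against 3.23% of all tested transcripts, and in the knockout 1 of 10, against 1.97%. Averaged over genotypes, with 4 libraries against 4, it was again 1 of 10, where 7.79% of all tested transcripts were called. An unadjusted limma p below 0.05 was found for 5 of 10 genes in wild type, 2 in the knockout and 6 in the average. Among all tested transcripts the shares below 0.05 were 20.9%, 18.4% and 24.3%. The 10 genes had a median log2 change of 0.27 (wild type) and -0.01 (knockout), beside -0.26 and -0.12 for all tested transcripts. In wild type the libraries did not overlap for PRDX1, TXN, NQO1, FTH1 and FTL, which were higher at 30 min, a pattern seen in 14% of all tested transcripts. They did not overlap either for TXNRD1 and SRXN1, which were lower, as were 38.9% of all. The higher genes are the 5 with the shortest listed transcripts of the 10, from 635 to 1105 bases. TXNRD1 has 3930 bases and SRXN1 2528, while GCLM, with 3008, did not separate. Summed RPKM is larger when a library's reads lie on shorter transcripts. Wild-type sums were 559597 and 599494 directly after irradiation, then 733360 and 693260 after recovery. Knockout sums went from 635003 and 631357 to 678292 and 693916. The part of length in this split was not tested. In the knockout, PRDX1 and NQO1 were higher without overlap, as were 18.6% of all tested transcripts, and TXNRD1 and GCLC were lower, as were 30.9%. Over both genotypes PRDX1 was higher in 4 of 4 libraries than in any at 0 min, as were 3.17% of all, and TXNRD1 was lower in 4 of 4, as were 10% of all.

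**Figure D2:**
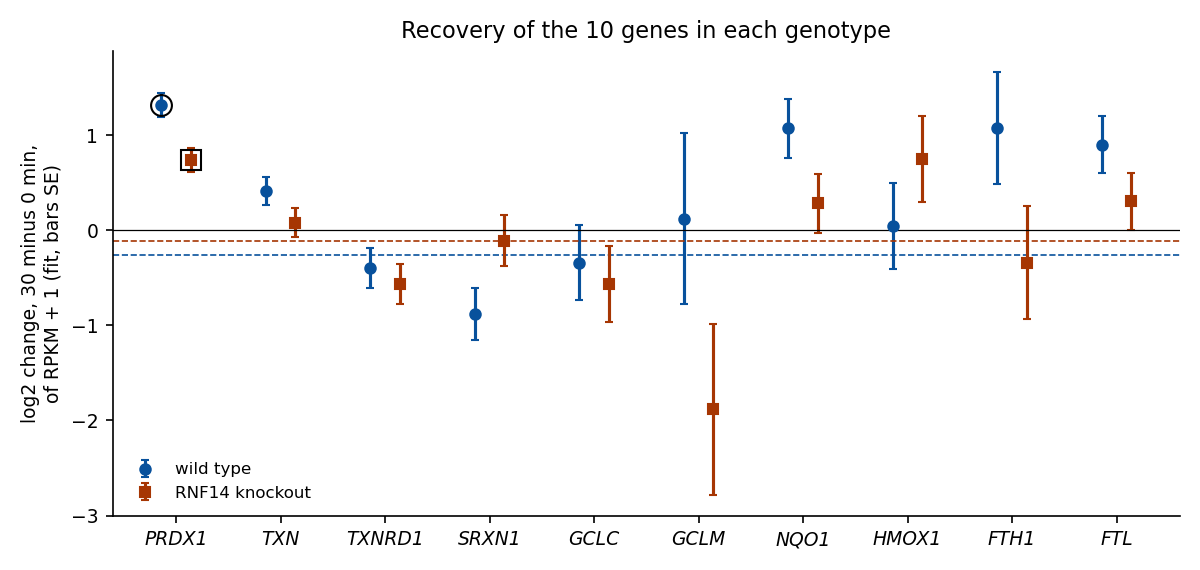
Fitted log2 change from 0 to 30 min for each gene in wild type (circles) and RNF14 knockout (squares), with bars for the SE of the limma fit on 8 libraries. Outlined points passed the adjusted threshold of 0.05, and dashed lines give the median of all tested transcripts, -0.26 in wild type and -0.12 in the knockout. PRDX1 is outlined in both genotypes, and GCLM and FTH1 have the widest bars.

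The thioredoxin arm passes electrons from NADPH through thioredoxin reductase (TXNRD1, a selenoprotein) to thioredoxin (TXN), which reduces the peroxidase PRDX1. SRXN1, sulfiredoxin, repairs peroxiredoxins whose catalytic cysteine has been overoxidised. PRDX1 (ENSG00000117450, chr1:45511051-45522890) had 412 and 419 RPKM in wild type at 0 min and 1091 and 988 RPKM at 30 min. In the knockout it had 590 and 621 RPKM at 0 min and 1026 and 998 RPKM at 30 min. At 30 min the 4 libraries lay close together, and at 0 min the wild-type libraries were the lower ones. In group means this is 416 ± 4.95 against 1039 ± 73.0 RPKM in wild type and 606 ± 21.6 against 1012 ± 19.8 RPKM in the knockout (SD, n = 2 each). The log2 change was 1.32 in wild type (SE 0.13, limma adjusted p = 0.000359) and 0.74 in the knockout (SE 0.13, limma adjusted p = 0.0184). These rest on 732 reads at 0 min and 1222 at 30 min in wild type, and on 1150 and 747 reads in the knockout. Averaged over genotypes the change was 1.03 (SE 0.09, limma adjusted p = 0.000125), called under all 16 alternatives. The call in the knockout was lost without knockout 0 min replicate 1 or 2, where limma adjusted p was 0.193 and 0.206, without knockout 30 min replicate 1, where it was 0.0575, and with median centring, where it was 0.0760.

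TXN (ENSG00000136810, chr9:110243810-110256507) moved less. It had 446 and 528 RPKM in wild type at 0 min and 638 and 656 RPKM at 30 min, and in the knockout 527 and 437 RPKM at 0 min and 515 and 501 RPKM at 30 min. The wild-type libraries at 30 min were the 2 highest of all 8, and the knockout groups overlapped. The log2 change was 0.41 (SE 0.15, limma adjusted p = 0.153) in wild type and 0.08 (SE 0.15, limma adjusted p = 0.818) in the knockout, which turned to -0.034 with TPM scaling. The ratio of PRDX1 to TXN within a library does not depend on the scaling of that library. For wild type it was 0.925 and 0.794 at 0 min, then 1.71 and 1.51 at 30 min. For the knockout it was 1.12 and 1.42 at 0 min, then 1.99 and 1.99. All 4 ratios at 30 min were above all 4 at 0 min, so PRDX1 footprints were more abundant relative to those of its electron donor.

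TXNRD1 (ENSG00000198431, chr12:104215779-104350307) pointed the other way. It had 48.0 and 39.5 RPKM in wild type at 0 min and 34.4 and 31.5 RPKM at 30 min, and in the knockout 44.9 and 47.1 RPKM at 0 min and 30.6 and 31.0 RPKM at 30 min. Each library at 30 min lay below each at 0 min. Averaged over genotypes the log2 change was -0.48 (SE 0.15, limma adjusted p = 0.0807), which missed the threshold. It passed with TPM scaling, at -0.69 (limma adjusted p = 0.0167), and with limma voom on the recovered reads, at -0.47 (adjusted p = 0.0419). Since the median transcript changed by -0.19, the difference from that median was -0.29. The ratio of PRDX1 to TXNRD1 within a library was 8.59 and 10.6 in wild type at 0 min, 13.2 and 13.2 in the knockout at that time, and between 31.3 and 33.5 in all 4 libraries at 30 min. The listed transcripts are 945 bases for PRDX1 and 3930 for TXNRD1, and the part of length in this rise was not tested.

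SRXN1 (ENSG00000271303, chr20:646615-653200) had 19.1 and 22.0 RPKM in wild type at 0 min and 9.92 and 11.5 RPKM at 30 min, on 97 and 33 reads. In the knockout it had 17.8 and 13.7 RPKM at 0 min and 13.4 and 15.5 RPKM at 30 min. The wild-type groups were apart and the knockout groups overlapped. The log2 change was -0.88 (SE 0.27, limma adjusted p = 0.102) in wild type and -0.11 (SE 0.27, limma adjusted p = 0.870) in the knockout. In wild type it passed the threshold with TPM scaling, at -1.19 (limma adjusted p = 0.0282), and under none of the other 15 alternatives.

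The glutathione arm begins with glutamate-cysteine ligase, the rate-limiting enzyme of glutathione synthesis, made of a catalytic subunit (GCLC) and a modifier subunit (GCLM) that eases feedback inhibition. Neither subunit passed the test in any comparison. GCLC (ENSG00000001084, chr6:53497341-53545101) had 18.1 and 10.9 RPKM in wild type at 0 min and 16.0 and 7.40 RPKM at 30 min, and in the knockout 23.2 and 15.8 RPKM at 0 min and 14.4 and 11.1 RPKM at 30 min. The spread between wild-type replicates was wider than the step between times, and the log2 change was -0.34 (SE 0.39, limma adjusted p = 0.666) there and -0.56 (SE 0.39, limma adjusted p = 0.490) in the knockout. GCLM (ENSG00000023909, chr1:93885199-93909430) had 6.35 and 7.87 RPKM in wild type at 0 min and 7.87 and 7.73 RPKM at 30 min. In the knockout it had 14.2 and 11.5 RPKM at 0 min, while at 30 min it is listed at 0 in replicate 1 and at 13.0 RPKM in replicate 2. A count of 0 in that library, the shallowest, allows up to 3 reads, or 3.08 RPKM, below every other library. The fitted change in the knockout, -1.88 (SE 0.90, limma adjusted p = 0.296), depends on the pseudocount and is no bound. It was 0.02 without knockout 30 min replicate 1 and -3.79 (limma adjusted p = 0.00272) without replicate 2, so 1 library decides it.

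NQO1 reduces quinones by transferring electrons in pairs, and HMOX1, haem oxygenase-1, splits haem into biliverdin, carbon monoxide and iron. NQO1 (ENSG00000181019, chr16:69709401-69726560) had 17.3 and 32.6 RPKM in wild type at 0 min and 40.3 and 64.8 RPKM at 30 min, and in the knockout 57.6 and 63.9 RPKM at 0 min and 75.4 and 72.9 RPKM at 30 min. The lowest values were those of wild type at 0 min and the highest those of the knockout at 30 min. The log2 change was 1.07 (SE 0.31, limma adjusted p = 0.0881) in wild type, on 52 and 69 reads, and 0.29 (SE 0.31, limma adjusted p = 0.681) in the knockout. The wild-type change passed with voom, at 1.04 (adjusted p = 0.0461). HMOX1 (ENSG00000100292, chr22:35381096-35394207), often the most inducible gene of the group, was the least read of the 10. It had 10.1 and 7.95 RPKM in wild type at 0 min and 9.86 and 8.72 RPKM at 30 min, and in the knockout 5.18 and 1.65 RPKM at 0 min and 7.95 and 4.20 RPKM at 30 min. Times overlapped within each genotype. The log2 change in wild type was 0.04 (SE 0.45, limma adjusted p = 0.970), on 26 reads at 0 min and 18 at 30 min. The share of reads at 30 min was 1.04 times that at 0 min, with exact 95% bounds of 0.540 and 1.98. The log2 change of HMOX1 in the knockout was 0.75 (SE 0.45, limma adjusted p = 0.413), on 12 and 7 reads. A rise of 2-fold in HMOX1 lies just outside the counting interval in wild type and inside that of the knockout, where the ratio of shares was 1.51 with bounds of 0.502 and 4.15. A fall of 2-fold lies just outside both, and these intervals cover counting error only.

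Ferritin stores iron in a shell of heavy (FTH1) and light (FTL) chains, of which the heavy chain oxidises iron and the light chain helps to form the mineral core. FTH1 (ENSG00000167996, chr11:61964285-61967634) had 31.3 and 32.4 RPKM in wild type at 0 min and 70.9 and 65.7 RPKM at 30 min, on 49 and 70 reads. In the knockout it had 42.0 and 52.9 RPKM at 0 min and 15.0 and 89.7 RPKM at 30 min. The wild-type groups were tight and apart, whereas the knockout libraries at 30 min were the lowest and the highest of all 8. The log2 change was 1.08 (SE 0.59, limma adjusted p = 0.328) in wild type and -0.34 (SE 0.59, limma adjusted p = 0.810) in the knockout. The fit shares its spread over groups, and the wild-type change passed without knockout 30 min replicate 1 (limma adjusted p = 0.0196) or replicate 2 (limma adjusted p = 0.0261), and with voom (adjusted p = 0.0499). In the knockout the change was 0.91 (limma adjusted p = 0.107) without replicate 1 at 30 min and -1.59 (limma adjusted p = 0.0122) without replicate 2.

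FTL (ENSG00000087086, chr19:48965309-48966879), whose iron response element loop is shown above, had 55.4 and 81.5 RPKM in wild type at 0 min and 107 and 149 RPKM at 30 min, and in the knockout 83.2 and 101.7 RPKM at 0 min and 85.1 and 153 RPKM at 30 min. It was higher at 30 min in both wild-type libraries, and the knockout groups overlapped. The log2 change was 0.90 (SE 0.30, limma adjusted p = 0.130) in wild type and 0.31 (SE 0.30, limma adjusted p = 0.641) in the knockout. The wild-type change passed with voom, at 0.87 (adjusted p = 0.0304). The averaged change of 0.60 (SE 0.21, limma adjusted p = 0.116) passed without knockout 30 min replicate 1, at 0.81 (limma adjusted p = 0.0333), and with voom, at 0.64 (adjusted p = 0.0268). FTL was above FTH1 per length in all 8 libraries, by a ratio of 1.51 to 2.51 in 7 of them and of 5.68 in knockout at 30 min replicate 1. The RefSeq gene table lists 27 pseudogenes named after FTH1, 20 after FTL, 7 after TXN, 1 after PRDX1 and 1 after SRXN1. How reads that fit several places were counted is not given in the sources used here, so the levels of these genes, the ferritins above all, are uncertain.

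Genotype was the second comparison. At 0 min, directly after irradiation, none of the 10 genes passed the test between knockout and wild type, where 0.168% of all tested transcripts were called, and 3 of the 10 had an unadjusted p below 0.05, as did 13.6% of all tested transcripts. Those were NQO1, PRDX1 and HMOX1. Wild-type NQO1 was at 24.9 ± 10.8 RPKM and knockout NQO1 at 60.7 ± 4.49 RPKM (SD, n = 2 each), which differ by 1.32 on the log2 scale (SE 0.31, limma adjusted p = 0.144). PRDX1 differed by 0.54 (SE 0.13, limma adjusted p = 0.141), with 416 and 606 RPKM in the means. Wild-type HMOX1 was at 9.03 ± 1.53 RPKM and knockout HMOX1 at 3.42 ± 2.50 RPKM (SD, n = 2 each), and the fitted difference was -1.30 (SE 0.45, limma adjusted p = 0.262). That difference was -0.69 without knockout 0 min replicate 2, which had 2 reads, and -1.91 without replicate 1. Limma voom on the recovered reads called NQO1, at 1.30 (adjusted p = 0.00735), and PRDX1, at 0.54 (adjusted p = 0.0251), and no other of the 10. At 0 min the knockout libraries were higher without overlap for PRDX1, GCLM, NQO1, FTH1 and FTL, as were 21.5% of all tested transcripts, and lower for SRXN1 and HMOX1, as were 29.4%.

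At 30 min none of the 10 genes passed, where 0.126% of all tested transcripts were called, and TXN alone had an unadjusted p below 0.05, beside 10.9% of all tested transcripts. Voom also called none of the 10. The level of TXN was 647 ± 12.2 RPKM in wild type against 508 ± 10.3 RPKM in the knockout (SD, n = 2 each), and the fitted difference was -0.35 (SE 0.15, limma adjusted p = 0.433). PRDX1 had nearly equal means of 1039 and 1012 RPKM, a difference of -0.04 (SE 0.13, limma adjusted p = 0.941). NQO1 differed by 0.53 (SE 0.31, limma adjusted p = 0.564). For GCLM the difference of -1.23 (SE 0.90, limma adjusted p = 0.639) became -3.14 (limma adjusted p = 0.00830) without knockout 30 min replicate 2 and 0.67 without replicate 1. For FTH1 the difference of -0.86 (SE 0.59, limma adjusted p = 0.614) became -2.12 (limma adjusted p = 0.00799) and 0.39 in the same way, so neither has a direction that both libraries share. The knockout was higher without overlap for SRXN1 and NQO1, as for 20.2% of all tested transcripts, and lower for TXN, TXNRD1 and HMOX1, as for 18.3%.

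**Figure D3:**
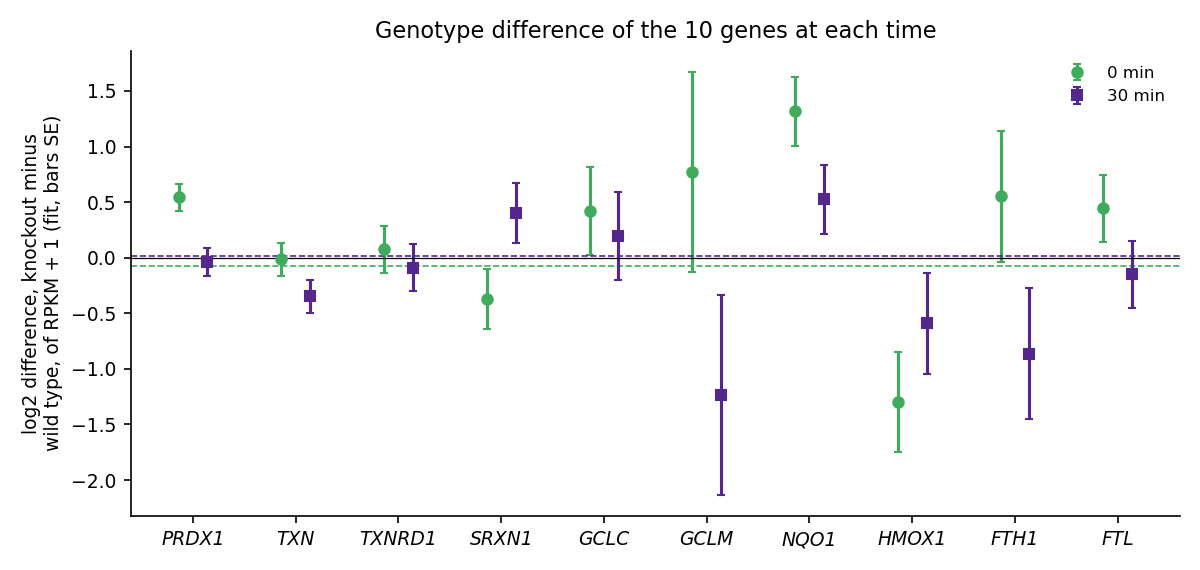
Fitted log2 difference between RNF14 knockout and wild type for each gene at 0 min (circles) and 30 min (squares), with bars for the SE of the limma fit on 8 libraries and dashed lines for the median of all tested transcripts, -0.08 and 0.02. No point passed the adjusted threshold of 0.05; NQO1 at 0 min, at 1.32, is the highest and HMOX1 at 0 min, at -1.30, the lowest.

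The third comparison, the interaction of genotype with time, asks whether recovery differed between the genotypes. None of the 10 genes passed with limma-trend, where 0.00839% of all tested transcripts were called, and voom called none of the 10 either. PRDX1 had the smallest p, 0.00823 before adjustment, and was the only gene of the 10 below 0.05, where 13.3% of all tested transcripts were. Its change in the knockout was lower by 0.58 on the log2 scale than in wild type (an interaction of -0.58, SE 0.18, limma adjusted p = 0.25), and after quantile normalization that value was -0.16. The interaction was 0.77 (SE 0.38, limma adjusted p = 0.409) for SRXN1 and -0.79 (SE 0.44, limma adjusted p = 0.464) for NQO1. Without knockout 30 min replicate 2 it was -3.91 for GCLM and -2.67 for FTH1 (limma adjusted p = 0.0211 each), beside -2.01 (limma adjusted p = 0.512) and -1.41 (limma adjusted p = 0.489) with all libraries. Without replicate 1 it was -0.10 for GCLM and -0.16 for FTH1. A p that misses the threshold here does not show that the genotypes recovered alike.

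The replicates of the knockout at 30 min were set side by side because GCLM and FTH1 depended on them. Set against the totals of both libraries, replicate 1 had 0 reads of GCLM where the share in replicate 2 (18 reads) gives 12.7, and it had 4 reads of FTH1 where the share in replicate 2 (34 reads) gives 24.0. With 3 reads in place of 0, GCLM would be 4.23-fold lower in replicate 1, a value that leaves out the counting error of replicate 2. For FTH1 the ratio of replicate 1 to replicate 2 was 0.167, with an exact 95% interval from 0.0430 to 0.468, and for FTL it was 0.558, from 0.333 to 0.908. The intervals of the other 7 genes included 1. PRDX1 was at 1.03 (0.886 to 1.19), TXN at 1.03 (0.794 to 1.33) and NQO1 at 1.03 (0.606 to 1.75), so replicate 1 was not low for every gene. The 8 genes other than PRDX1 and TXN together held 0.0370% of reads in replicate 1 and 0.0520% in replicate 2. The column of replicate 1 carries a suffix in the deposited table that no label explains, and the part of that in these values was not tested.

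**Figure D4:**
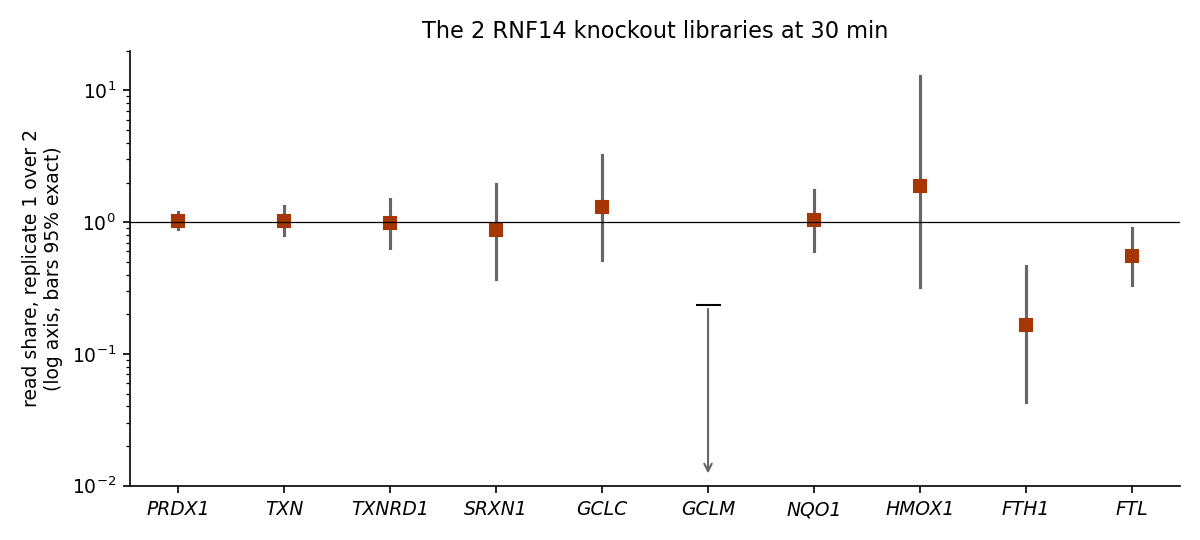
Ratio of read shares in the 2 RNF14 knockout libraries at 30 min, replicate 1 over replicate 2, on a log axis with exact 95% counting intervals; the arrow for GCLM runs down from 0.236, the ratio that 3 reads in place of 0 would give. The intervals of FTH1 and FTL and the arrow for GCLM lie wholly below 1, and the intervals of the other 7 genes include 1.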

How the data were processed

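Per the submitters' processing notes, reads were handled with cutadapt and STAR 2.7.10a on hg38. How a transcript and a counted region were chosen for each gene is not stated there. The authors deposited RPKM for 8 libraries in 1 table, with transcript lengths. RPKM times length gave whole reads for 100% of values above 0, within 0.05 of a read. Differences were tested on log2(RPKM + 1) by limma-trend, in limma 3.58.1 under R 4.3.3, with 1 fit of 4 group means and 4 residual degrees of freedom. The fit was tested on simulated data for recovery averaged over genotypes only, so the other comparisons were not covered. Voom on the recovered reads was an alternative, as RPKM is no count. Others were pseudocounts, filter, 3 scalings, a replicate block and leaving out each library. Ratios of reads have exact Clopper-Pearson intervals, which cover counting error only.

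All 10 genes are named. Names come from the list that defined the genes, since the RefSeq gene table used here has 0 Ensembl IDs. For that reason the pathway list and marker list were not run. Genes, lists and tests were chosen with earlier results of these data known. Figures used matplotlib 3.10.9.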

Additional observations from a re-analysis of the deposited data

How the results depend on the processing

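Of 10 genes, wild-type recovery called 1 in the main fit, 2 with TPM scaling (PRDX1 and SRXN1), 2 with a replicate block (PRDX1 and FTL), 4 with voom (PRDX1, NQO1, FTH1 and FTL) and 1 to 2 with a library left out. Knockout recovery called 1, then 0 with median centring and 0 to 3 with a library left out. Averaged recovery called 1, then 3 with TPM scaling (PRDX1, TXNRD1 and SRXN1), 2 with the block (PRDX1 and FTL), 4 with voom (PRDX1, TXNRD1, NQO1 and FTL) and 1 to 3 with a library left out. Genotype at 0 min called 0, and 2 with voom; genotype at 30 min and the interaction called 0, and 0 to 2 with a library left out, in both cases GCLM and FTH1 without knockout 30 min replicate 2. No pairing by replicate number was seen: over all tested transcripts the correlations of same-numbered deviations ran from -0.0794 to 0.0669. Counting noise can hide a pairing, so these values do not show how the libraries were prepared. With the block FTL was called at 0.90 (limma adjusted p = 0.0482) in wild type and at 0.60 (limma adjusted p = 0.0355) in the average, and the block moved no other count.

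Over 60 changes and 16 settings (960 values), 900 kept direction and side of the threshold, 4 lost and 24 gained a call, and 32 changed sign, none of these with a call. With TPM scaling the signs changed for knockout against wild type in PRDX1 at 30 min (0.018) and TXNRD1 at 0 min (-0.051), for recovery in TXN in the knockout (-0.034), GCLM (-0.15) and HMOX1 (-0.24) in wild type, and for the interaction in TXNRD1 (0.013). Quantile normalization gave 0.14 for PRDX1 at 30 min, and median centring gave 0.12 for TXN at 0 min. With a library left out, wild-type recovery ran from -0.85 to 0.17 in GCLC, -0.011 to 0.26 in GCLM and -0.11 to 0.20 in HMOX1. Knockout recovery ran from -1.59 to 0.91 in FTH1, -0.11 to 0.72 in FTL, -3.79 to 0.025 in GCLM, -0.29 to 0.069 in SRXN1 and -0.054 to 0.22 in TXN. Averaged recovery ran from -0.26 to 0.995 in FTH1 and -1.83 to 0.075 in GCLM. Knockout against wild type at 0 min ran from -0.15 to 0.12 in TXN and -0.062 to 0.21 in TXNRD1. At 30 min it ran from -2.12 to 0.39 in FTH1, -0.57 to 0.27 in FTL, -0.31 to 0.70 in GCLC, -3.14 to 0.67 in GCLM and -0.11 to 0.035 in PRDX1. The interaction ran from -0.73 to 0.28 in GCLC. The causes were not tested.

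Among all tested transcripts the alternatives called 80 to 1385 for wild-type recovery (main 385), 22 to 571 for knockout recovery (235), 225 to 2165 for averaged recovery (929), 3 to 831 and 8 to 126 for genotype at 0 and 30 min (20 and 15), and 1 to 123 for the interaction (1). Scaling moved the median wild-type change from -0.26 to -0.54 with TPM and to 0.02 with median centring. Depth limits HMOX1 most, with 63 reads in all 8 libraries.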

Other observations

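Among 6318 tested transcripts for which knockout at 30 min replicate 2 gives at least 10 reads at the depth of replicate 1, 3 had 0 reads in replicate 1, and GCLM was 1 of those 3. In the same set, 31 transcripts, or 0.491%, had under 0.25 times the reads so derived, and GCLM and FTH1 were 2 of those 31. In the opposite direction 67 of 7523 transcripts, or 0.891%, were under 0.25 times in replicate 2, with none of the 10 genes among them. Within the other 3 groups between 15 and 60 transcripts were under that ratio in either direction, again with none of the 10 genes. This count was made after the GCLM and FTH1 values had been seen, and it is a description of these libraries.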
